A study of Mus musculus with 25 samples.

Results

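The 44 genes described here encode the machinery of mitosis: the spindle assembly checkpoint, the mitotic kinases, the kinetochore, the motor proteins of the spindle and the apparatus of cytokinesis. They were picked by gene symbol for these functions, and all 44 were found among the 37117 rows of a table of read counts in mouse hepatocytes. The table holds 25 libraries of sorted hepatocytes in 7 groups, made to follow raised activity of YAP, the co-activator that the Hippo kinases Lats1 and Lats2 hold in check. Untreated ApoYap mice (ApoYap ctrl, 4 libraries) carry ApoE-rtTA and TRE-hYAP, a human YAP transgene driven by a doxycycline-dependent activator, and the ApoYap Dox group (3 libraries) is that strain after 1 week of doxycycline hyclate at 0.2 mg/ml in drinking water with 2.5% sucrose. Untreated Lats1flox/flox; Lats2flox/flox mice (Lats1/2 flox ctrl, 4 libraries) were set against the same genotype 1 week after AAV8-Cre under the hepatocyte promoter TBG (Lats1/2 KO, 3 libraries). BL/6 mice were left untreated (BL/6 ctrl, 4 libraries), given the same doxycycline water for 1 week (BL/6 Dox, 4 libraries), or sampled 24 hours after AAV8.TBG.PI.Cre (BL/6 AAV-Cre, 3 libraries). The virus time therefore differs between the BL/6 AAV-Cre and the Lats1/2 KO group. The labels give neither age nor sex, and do not say that each library is a separate animal, so p-values measure the spread between libraries, which may be technical.

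Most hepatocytes of the adult liver rest outside the cell cycle, and many are polyploid, having passed through a cycle without division. Genes of the mitotic machinery are transcribed late in the cell cycle, under the MuvB complex with B-Myb and under Foxm1, through promoter elements called the cell cycle genes homology region (CHR) and the CCAAT box of the factor NF-Y. In resting cells the DREAM complex keeps the same genes off. After chromosomes condense, kinetochores built on centromeric chromatin attach to microtubules, the checkpoint waits for every attachment, and the anaphase-promoting complex then releases the sister chromatids. The central spindle and the contractile ring finally divide the cell.

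Libraries held 8107539 to 16515330 counts. In TMM-scaled counts (CPM), Lats1, counted at its 3′ end, measured 12.3 to 14.9 in the floxed controls and 2.97 to 5.10 CPM in the knockouts, whereas Lats2 measured 12.9 to 13.7 and 7.70 to 17.8 CPM. Whether the counted Lats2 end lies in the deleted part is not given in the sources used here. Mouse Yap1 measured 41.0 to 46.9 CPM in ApoYap ctrl and 16.99 to 24.8 CPM in ApoYap Dox. Relative to library totals it measured 37.2 to 43.6 and 31.2 to 43.9 CPM, and with total counts alone its change was -0.13 (edgeR adjusted p = 0.29). A row for the human transgene was not used here. The hepatocyte markers Alb and Hnf4a were present in each group, and the hepatocyte markers summed to 53341 to 99556 CPM of the library total. All 11 that were tested fell in both comparisons with TMM scaling, and 9 and 6 fell with total counts alone, Alb and Fgb not among them. Markers of other cells were also present. The 21 macrophage markers summed to 70.3 to 406.3 CPM in the 19 libraries without raised YAP activity, to 14925 to 26511 CPM in ApoYap Dox and to 1063 to 2796 CPM in Lats1/2 KO. The 21 endothelial markers summed to 54.9 to 407.5, 1954 to 3665 and 828.2 to 2275 CPM in the same order, and the 15 stellate markers to 22.2 to 159.7, 297.5 to 506.0 and 299.6 to 962.2 CPM. The neutrophil markers summed to 0.257 to 1.53 CPM in the 19 libraries, 22.6 to 60.7 CPM in ApoYap Dox and 1.27 to 5.73 CPM in Lats1/2 KO, and all 4 tested rose after induction, although Ly6g had 0 counts throughout. The T cell marker Cd3e had 0 to 4 counts per group and the B cell marker Cd79a 0 to 3, while the B cell marker Cd79b rose by 5.22 after induction. The cholangiocyte markers summed to 24.6 to 79.1 CPM in the 19 libraries, 275.2 to 399.5 CPM in ApoYap Dox and 105.1 to 330.8 CPM in Lats1/2 KO. In these bulk samples, fewer cells of a type and less RNA per cell cannot be told apart.

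YAP activity is called raised here by genotype and treatment and was not measured. In the groups without raised YAP activity the 44 genes were scarce. In BL/6 ctrl, 23 averaged under 1 CPM, and 2 averaged over 10 CPM, Pttg1 and Spc24. Nearly the whole set was higher in both groups with raised YAP activity. After YAP induction 42 of the 44 were called higher and 1 lower, where 67.0% of all 12970 genes tested were called (35.0% higher, 32.0% lower). After the Lats1/2 knockout 42 were again called higher and 1 lower, where 38.0% of all genes were called (20.6% higher, 17.4% lower). The median log2 fold change of the 44 was 4.63 after induction and 4.67 after the knockout, against 0.07 and -0.03 over all genes tested. Without floxed control 4, which stands apart from its group for these genes, 43 of the 44 were called after the knockout, with a median of 5.63. Leaving that library out raised the knockout's fold change by over 1.5 times for 31 of the 44. Over the fits that left out 1 library, 3339 to 5111 of all genes were called after the knockout.

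These calls come from edgeR's quasi-likelihood test on the counts with TMM scaling, adjusted by the Benjamini-Hochberg method over all genes tested, with a threshold of 0.05. Of the 44 genes, 23 also passed the filter on low counts when the 19 libraries without raised YAP activity were filtered alone. Of these 23, 21 were called higher, 1 lower (Pttg1) and 1 (Cks2) was not called, in each comparison. The other 21 genes entered the test through the libraries in which they are high, so their calls followed from the filter in part. Every ApoYap Dox library lay above all 19 libraries without raised YAP activity for 39 of the 44 genes, against 27.0% of all genes, and the exceptions were Aurka, Spc24, Pttg1, Kif20a and Cks2. Every Lats1/2 KO library lay above the 19 for 42 genes, against 13.2% of all genes, with Pttg1 and Cks2 the exceptions. Both counts include genes of the 21 named above, all but Kif20a after induction and all after the knockout. The separation of those genes followed from the filter in part. The other exceptions, Aurka, Spc24, Pttg1 and Cks2, are among the 23.

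**Figure D1:**
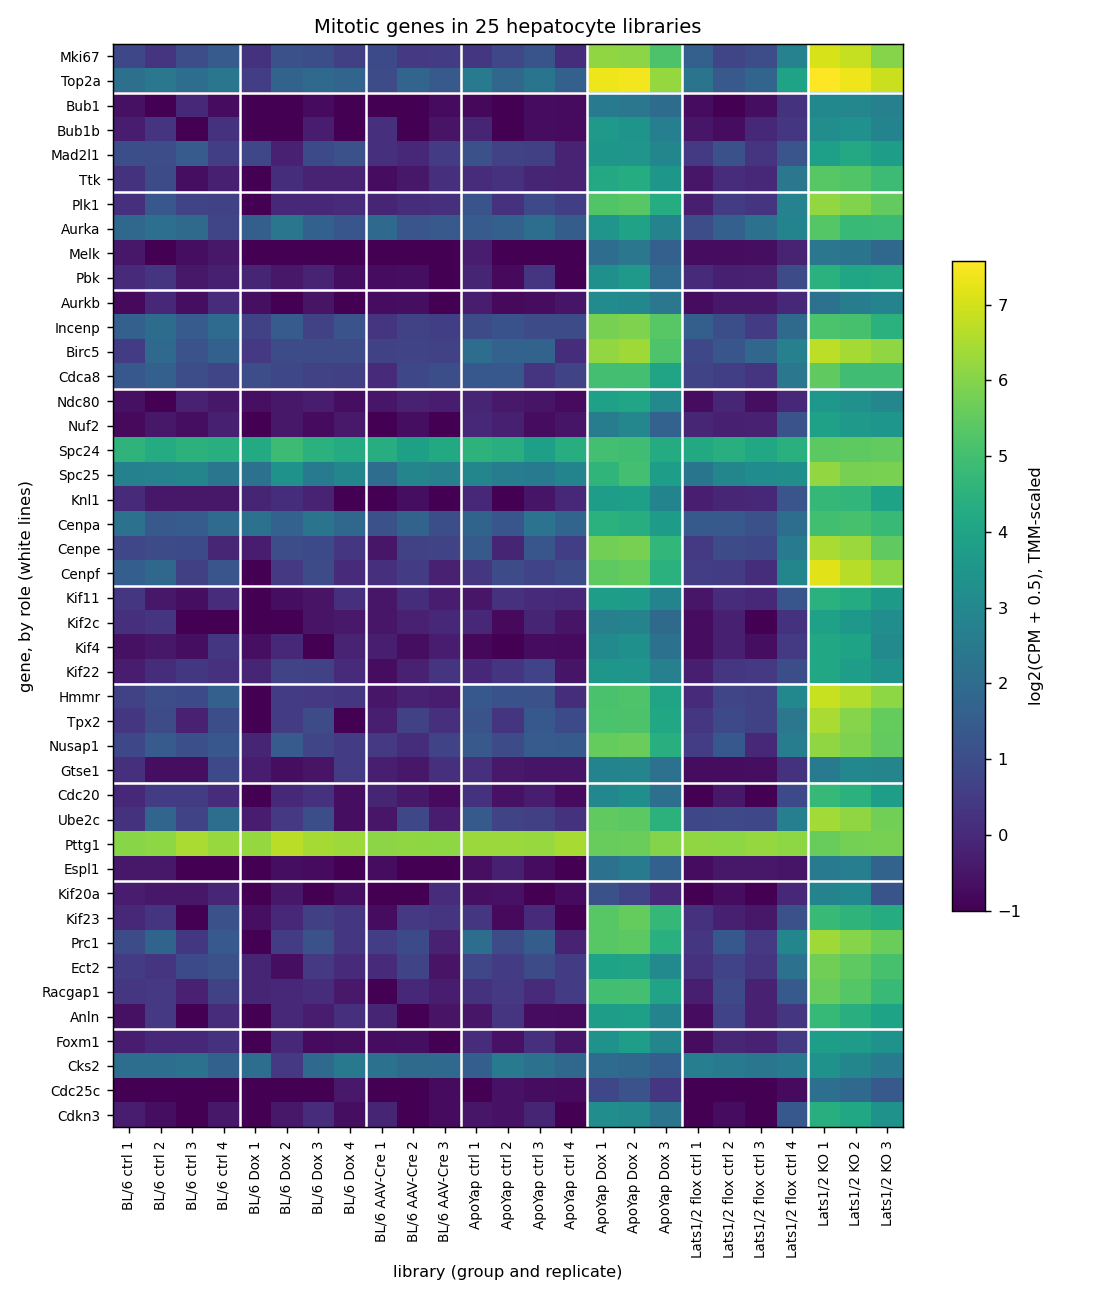
Level of the 44 mitotic genes in each of the 25 libraries, as log2 of TMM-scaled CPM plus 0.5, with genes grouped by role and libraries by group (white lines). The 3 ApoYap Dox and 3 Lats1/2 KO columns are brighter in nearly every row, Pttg1 is high in all 25 libraries, and replicate 4 of the floxed controls is brighter than the other 3.

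Since these genes moved together, their promoters were read for the 2 elements named above. RefSeq (GRCm38.p6) windows of 300 bases, 250 before to 50 after a start site, were found for 36 of the 44 genes, and Tpx2, Aurkb, Spc24, Pbk, Kif20a, Cdc25c, Incenp and Foxm1 had none. A CHR (TTTGAA or TTTAAA, either strand) was in 32 of 39 windows of these genes (82.1%) and in 27.6% of all 32851 windows. The CCAAT box (CCAAT, either strand) was in 29 of 39 windows (74.4%), against 37.4% of all. A CCAAT box that starts 25 to 50 bases before a CHR, a spacing chosen after the positions were seen, was in 19 of 39 windows (48.7%) and in 1.57% of all. A CHR within 50 bases of the start site was in 69.2% of these windows and in 8.28% of all. The TEAD motif GGAATG (either strand), the binding site of YAP's partner factors, was in 4 of 39 windows (10.3%), against 14.7% of all. A match is only a description of the letters in the window.

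The following stretches are shown because their genes carry the result: 10 genes that rose in both comparisons and have a CHR (in Birc5 it lies outside the stretch), then Bub1 and Nuf2, which rose without one, and then Pttg1 and Cks2, which did not rise. Each is printed 5′ to 3′ on the gene's strand in lower case, with CHR and CCAAT box matches on either strand in capitals, and positions count from the start site at 0, so that the base before it is -1.
Top2a, chr11:99024190-99024289, minus strand, positions -100 to -1: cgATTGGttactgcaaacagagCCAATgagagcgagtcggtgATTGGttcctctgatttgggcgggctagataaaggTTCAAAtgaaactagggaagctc
Plk1, chr7:122159335-122159434, plus strand, positions -100 to -1: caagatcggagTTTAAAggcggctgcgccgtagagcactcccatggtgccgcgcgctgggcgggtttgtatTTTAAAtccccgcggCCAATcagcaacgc
Kif11, chr19:37376282-37376381, plus strand, positions -100 to -1: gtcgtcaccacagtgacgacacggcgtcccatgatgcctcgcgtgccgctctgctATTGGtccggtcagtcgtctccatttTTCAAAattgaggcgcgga
Cdc20, chr4:118437353-118437443, minus strand, positions -100 to -10: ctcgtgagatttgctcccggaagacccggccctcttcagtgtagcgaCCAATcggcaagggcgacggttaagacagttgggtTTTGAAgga
Ttk, chr9:83834684-83834713, plus strand, positions -5 to 24: cagcggggaaatTTCAAAcgtgtttccgga
Hmmr, chr11:40733412-40733441, minus strand, positions -4 to 25: agttgaggtaaaTTTGAAttcaggcgagct
Prc1, chr7:80294434-80294463, plus strand, positions -17 to 12: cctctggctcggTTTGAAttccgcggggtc
Kif23, chr9:61946780-61946809, minus strand, positions -10 to 19: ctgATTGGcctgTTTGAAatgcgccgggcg
Kif4, chrX:100626072-100626101, plus strand, positions 7 to 36: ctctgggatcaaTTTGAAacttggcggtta
Birc5, chr11:117849137-117849236, plus strand, positions -100 to -1: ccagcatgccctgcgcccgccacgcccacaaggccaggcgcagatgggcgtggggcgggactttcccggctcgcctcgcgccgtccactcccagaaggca
Bub1, chr2:127831866-127831959, minus strand, positions -100 to -7: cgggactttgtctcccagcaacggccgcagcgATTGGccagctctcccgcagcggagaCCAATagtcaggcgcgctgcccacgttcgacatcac
Nuf2, chr1:169531465-169531564, minus strand, positions -100 to -1: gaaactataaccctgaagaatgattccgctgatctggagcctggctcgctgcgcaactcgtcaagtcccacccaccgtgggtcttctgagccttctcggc
Pttg1, chr11:43425982-43426081, minus strand, positions -100 to -1: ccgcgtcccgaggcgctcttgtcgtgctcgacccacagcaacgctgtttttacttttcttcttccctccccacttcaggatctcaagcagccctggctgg
Cks2, chr13:51645132-51645231, plus strand, positions -100 to -1: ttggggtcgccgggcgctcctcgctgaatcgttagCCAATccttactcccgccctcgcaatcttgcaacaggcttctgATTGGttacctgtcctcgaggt

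In Top2a and in Cdc20 a CCAAT box starts 35 bases before the CHR nearest the start site, and in Kif11 the distance is 26 bases. Over all such pairs in 16 genes, with each pair of a gene counted, the distance had a median of 35 bases. Only distances of 25 to 50 bases counted as a pair, so the median was bounded by that choice and shows no preferred spacing. The CHR of Ttk, Hmmr and Kif23 starts 7, 8 and 2 bases after the start site, and that of Prc1 5 bases before it. The RefSeq start site used for Kif4 lies 328 bases from the nearest start in the GENCODE M21 annotation, so its positions hold for that start only. The CHR of Birc5 lies far from the start site, at -220, and its stretch holds neither element. Bub1 has a pair of CCAAT boxes and no CHR. The windows of Nuf2, Mad2l1, Melk, Nusap1 and Pttg1 held neither element, and the Cks2 window held 4 CCAAT boxes, of which 2 are in the stretch shown, and no CHR. Of the 29 genes with a CHR, 29 were called higher in each comparison, where 35.0% and 20.6% of all genes were called higher. Of the 7 without (Bub1, Mad2l1, Melk, Nuf2, Nusap1, Pttg1 and Cks2), 5 were called higher, Pttg1 lower (with total counts alone, higher after induction and not called after the knockout) and Cks2 neither, so a CHR was also absent from 5 genes that rose. Among genes with a CHR, Bub1b, Ttk, Ndc80, Knl1, Kif11, Kif2c and Kif4 entered the test through the libraries in which they are high. So did Gtse1, Cdc20, Espl1, Kif23, Anln and Cdkn3, and, among genes without a CHR, Bub1, Melk and Nuf2. Their calls followed from the filter in part, so nothing is read from the counts by promoter class. Promoter class was not a term of any test.

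**Figure D2:**
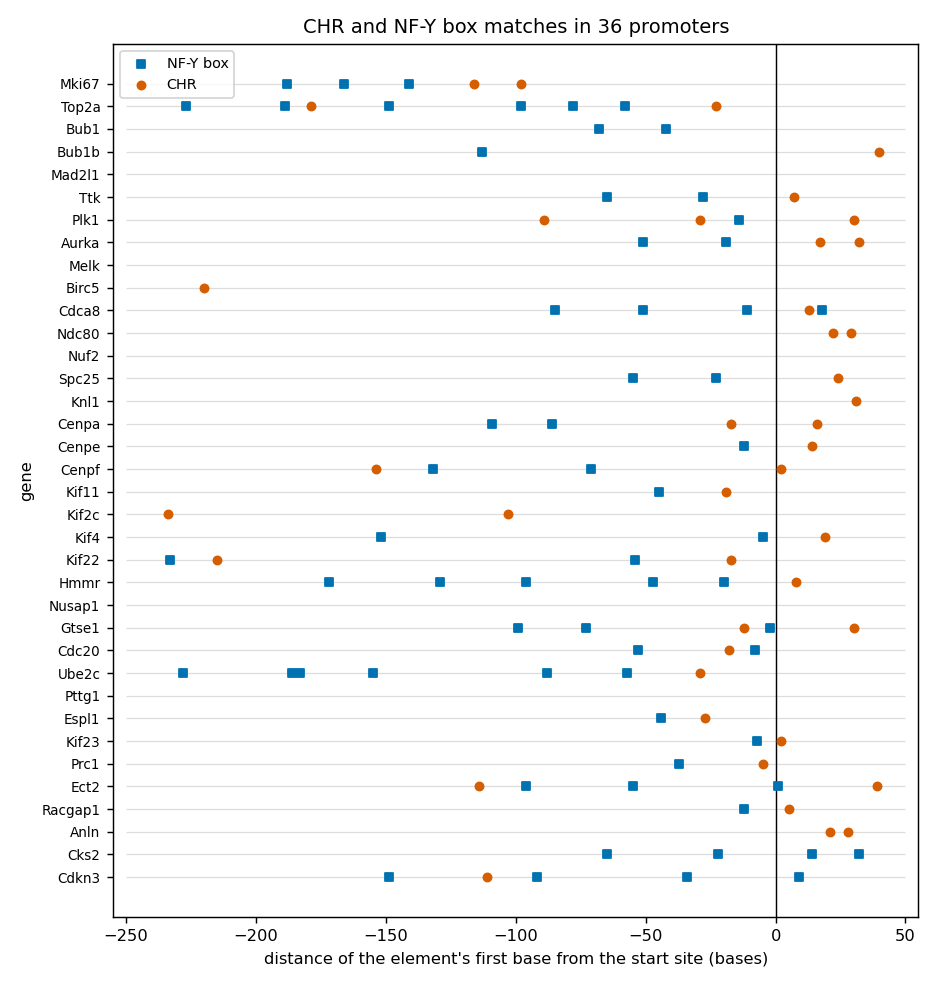
Positions of CHR matches (circles) and NF-Y box matches (squares) along the 36 promoter windows, as distance in bases of the element's first base from the start site at 0. Matches crowd towards the start site, and the rows of Mad2l1, Melk, Nuf2, Nusap1 and Pttg1 hold none.

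Chromosome surface and decatenation. Top2a, topoisomerase IIα, untangles sister chromatids, and Mki67 coats mitotic chromosomes and is the usual histological marker of cycling cells. Both rose in both comparisons. Top2a (chr11:98992943-99024189, minus strand, in GENCODE M21 coordinates on GRCm38, as for the genes below) measured 5.37, 3.102, 4.57 and 2.61 CPM in the ApoYap ctrl libraries and 165, 173 and 74.95 CPM in the ApoYap Dox libraries. It measured 4.39, 2.16, 2.98 and 15.1 CPM in the floxed controls and 191, 165 and 119 CPM in the knockouts. The treated libraries stood clear of their controls, and ApoYap Dox 3 was the lowest of the treated libraries. The log2 fold change of Top2a was 5.12 (SE 0.47; edgeR adjusted p = 9.9e-09) after induction and 4.65 (SE 0.46; edgeR adjusted p = 3.3e-07) after the knockout. Mki67 rose by 5.70 and 5.08 on the log2 scale, from 1.13 ± 0.568 to 58.1 ± 18.98 CPM (mean ± SD, n = 4 and 3) and from 2.98 ± 2.42 to 104 ± 35.99 CPM (n = 4 and 3). Without floxed control 4 the knockout values were 5.63 for Top2a and 5.83 for Mki67.

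Spindle assembly checkpoint. Ttk (Mps1) is the kinase that starts checkpoint signalling at unattached kinetochores, where Bub1 and Bub1b (BubR1) then gather, and Mad2l1 (Mad2) holds the anaphase-promoting complex inactive. All 4 rose in both comparisons, with medians of 5.30 after induction and 4.42 after the knockout. Ttk measured 0.565, 0.671, 0.415 and 0.401 CPM in the ApoYap ctrl libraries and 17.6, 19.5 and 11.1 CPM in the ApoYap Dox libraries. It measured 0.219, 0.568, 0.476 and 4.73 CPM in the floxed controls and 40.5, 37.9 and 29.1 CPM in the knockouts. Its groups did not overlap in either strain, but floxed control 4 lay far above the other floxed controls. Ttk changed on the log2 scale by 4.91 (SE 0.63; edgeR adjusted p = 6.7e-07) after induction and 4.51 (SE 0.57; edgeR adjusted p = 4.1e-06) after the knockout, and 6.38 in the knockout without floxed control 4. Bub1 held 3 counts over the 4 ApoYap ctrl libraries and 328 over the 3 ApoYap Dox libraries, which makes a ratio of 70.8 after scaling (24.0 to 345.3 from counting error at 95%). Mad2l1, which was already measurable at 1.06 ± 0.529 CPM in ApoYap ctrl, rose least of the 4, by 3.14 and 3.50. Without floxed control 4 the knockout values of Bub1 and Bub1b were 6.35 and 4.92, and without ApoYap ctrl 1 the induction value of Bub1b was 6.98.

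Mitotic kinases. Plk1 drives mitotic entry, centrosome maturation and cytokinesis, Aurka builds the spindle poles, and Melk and Pbk are kinases found mainly in dividing cells. All 4 rose in both comparisons. Plk1 measured 1.84, 0.671, 1.35 and 1.003 CPM in the ApoYap ctrl libraries and 37.6, 40.3 and 19.4 CPM in the ApoYap Dox libraries. It measured 0.329, 0.909, 0.715 and 6.41 CPM in the floxed controls and 72.3, 62.1 and 45.5 CPM in the knockouts. Each treated library lay above each control, and floxed control 4 was again the highest of its group. Plk1 changed by 4.70 (SE 0.56; edgeR adjusted p = 2.8e-07) after induction and 4.78 (SE 0.54; edgeR adjusted p = 1.4e-06) after the knockout, 6.51 without floxed control 4. Aurka had the smallest change of the 4, 1.97 (SE 0.37; edgeR adjusted p = 5.9e-05) and 3.06 (SE 0.37; edgeR adjusted p = 1.2e-06). Its ApoYap Dox libraries measured 10.7, 14.8 and 6.71 CPM, and the lowest of them lay just under floxed control 4, at 6.804 CPM. Melk had 0 counts in all 7 treated BL/6 libraries and measured 3.69, 4.796 and 2.61 CPM in ApoYap Dox and 4.84, 4.45 and 3.24 CPM in Lats1/2 KO. The knockout values of Melk and Pbk were 5.07 and 5.44 without floxed control 4. The induction value of Melk was 8.46 without ApoYap ctrl 1 and that of Pbk 5.38 without ApoYap ctrl 3.

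Chromosomal passenger complex. Aurkb is the kinase of this complex, Incenp its scaffold, and Birc5 (survivin) and Cdca8 (borealin) bring it to the centromere, where it corrects faulty attachments. All 4 rose in both comparisons. Birc5 measured 3.74, 2.77, 2.804 and 0.602 CPM in the ApoYap ctrl libraries and 71.7, 81.5 and 36.8 CPM in the ApoYap Dox libraries. It measured 1.32, 1.93, 3.097 and 6.21 CPM in the floxed controls and 105, 85.6 and 71.1 CPM in the knockouts. These groups did not overlap. Birc5 changed by 4.63 (SE 0.42; edgeR adjusted p = 4.8e-09) after induction and 4.77 (SE 0.42; edgeR adjusted p = 6.1e-08) after the knockout, 5.37 without floxed control 4. Incenp (chr19:9872296-9899551, minus strand) measured 1.48, 1.76, 1.45 and 1.504 CPM in the ApoYap ctrl libraries and 56.4, 60.2 and 40.4 CPM in the ApoYap Dox libraries. It measured 2.52, 1.59, 0.953 and 3.45 CPM in the floxed controls and 35.03, 33.3 and 21.9 CPM in the knockouts. It was higher in every ApoYap Dox library than in any knockout library. Its log2 fold change was 5.06 (SE 0.27; edgeR adjusted p = 8.1e-14) after induction and 3.79 (SE 0.27; edgeR adjusted p = 2.7e-10) after the knockout. Aurkb rose by 5.23 and 4.27, and Cdca8 by 4.07 and 4.14, 5.13 without floxed control 4.

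Kinetochore and centromere. Cenpa is the histone H3 variant that marks the centromere, Cenpe a kinesin and Cenpf a large coiled-coil protein of the outer kinetochore, Knl1 the platform for the checkpoint, and Ndc80, Nuf2, Spc24 and Spc25 the 4 subunits of the NDC80 complex that grips the microtubule. All 8 rose in both comparisons, but by unequal amounts. The transcripts of the 4 NDC80 subunits were far apart where YAP activity was low. In the 19 libraries without raised YAP activity the lowest, median and highest values were 0, 0.225 and 0.493 CPM for Ndc80 and 0, 0.238 and 1.77 CPM for Nuf2. They were 3.74, 6.56 and 9.89 CPM for Spc25 and 13.8, 20.1 and 28.8 CPM for Spc24. With a 3′ end library these levels do not depend on transcript length, but they do depend on how well each end was captured. Ndc80 and Nuf2 rose by 5.59 and 4.07 after induction and by 4.92 and 4.02 after the knockout, 4.99 for Nuf2 without floxed control 4. Spc25 rose by 1.87 (SE 0.27; edgeR adjusted p = 1.6e-06) and 3.08 (SE 0.28; edgeR adjusted p = 1.8e-08).

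Spc24 (chr9:21755442-21760303, minus strand), the most abundant of the kinetochore transcripts where YAP activity was low, had the smallest change of the 42 genes that rose. It measured 22.7, 20.96, 13.8 and 20.1 CPM in the ApoYap ctrl libraries and 31.6, 30.2 and 18.9 CPM in the ApoYap Dox libraries. It measured 18.2, 20.9, 17.03 and 21.4 CPM in the floxed controls and 42.2, 43.5 and 45.1 CPM in the knockouts. The ApoYap Dox range, with library 3 at its foot, overlapped its controls, while the knockouts lay above all floxed controls. The log2 fold change was 0.47 (SE 0.18; edgeR adjusted p = 0.021) after induction and 1.17 (SE 0.18; edgeR adjusted p = 1.6e-05) after the knockout. The call after induction was lost when ApoYap ctrl 3, ApoYap Dox 1 or ApoYap Dox 2 was left out, at edgeR adjusted p = 0.091, 0.14 and 0.097, and when the ApoYap groups were fitted alone (0.058). Cenpa rose by 2.58 (SE 0.27; edgeR adjusted p = 6.5e-09) and 3.62 (SE 0.28; edgeR adjusted p = 9.6e-10). Cenpe and Cenpf rose by 4.98 and 4.93 after induction and by 4.93 and 5.39 after the knockout, 5.85 and 6.96 without floxed control 4. Cenpf reached 145, 102 and 69.2 CPM in the knockouts, against 43.6, 46.6 and 21.96 CPM in ApoYap Dox.

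Kinesin motors. Kif11 (Eg5) slides the spindle poles apart, Kif4 acts on chromosome arms and the central spindle, Kif22 pushes chromosomes to the equator, and Kif2c depolymerises microtubules at centromeres. All 4 rose in both comparisons, with medians of 4.32 and 4.74. Kif11 measured 0.212, 0.671, 0.519 and 0.501 CPM in the ApoYap ctrl libraries and 13.1, 12.8 and 6.901 CPM in the ApoYap Dox libraries. It measured 0.219, 0.568, 0.476 and 1.97 CPM in the floxed controls and 21.9, 18.95 and 12.3 CPM in the knockouts. Treated and control libraries did not overlap. Kif11 changed by 4.53 (SE 0.50; edgeR adjusted p = 2.0e-08) after induction and 4.39 (SE 0.48; edgeR adjusted p = 2.1e-07) after the knockout, 5.37 without floxed control 4. Kif4 (X chromosome) had the largest fold change but that of Kif23 after induction, 6.56, on 3 counts over 4 ApoYap ctrl libraries and 515 over 3 ApoYap Dox libraries. After scaling the ratio was 111.2 (37.9 to 541.2 from counting error at 95%). In the 2 raised groups Kif4 measured 7.95, 9.41 and 4.199 CPM and 16.7, 15.3 and 8.01 CPM, and its fold change after the knockout was 5.09, 6.05 without floxed control 4.

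Spindle assembly factors. Tpx2 activates Aurka and nucleates microtubules near chromosomes, Hmmr focuses the spindle poles, Nusap1 bundles microtubules, and Gtse1 stabilises them. All 4 rose in both comparisons, and each had a fitted fold change that was larger after the knockout than after induction, by 0.37 to 0.92, with no difference passing the test. Hmmr (chr11:40701395-40733422, minus strand) measured 2.05, 1.76, 1.66 and 0.602 CPM in the ApoYap ctrl libraries and 34.3, 36.3 and 15.6 CPM in the ApoYap Dox libraries. It measured 0.549, 1.25, 1.07 and 7.49 CPM in the floxed controls and 117, 96.1 and 69.4 CPM in the knockouts. Every knockout library held more Hmmr than any ApoYap Dox library, and floxed control 4 stood apart from the other 3. The log2 fold change was 4.20 (SE 0.55; edgeR adjusted p = 1.1e-06) after induction and 5.12 (SE 0.54; edgeR adjusted p = 6.5e-07) after the knockout, 6.61 without floxed control 4. Tpx2 rose by 4.29 and 4.99, Nusap1 by 4.25 and 4.62, and Gtse1 by 4.10 and 4.55. Without floxed control 4 the knockout values of Tpx2, Nusap1 and Gtse1 were 5.94, 5.63 and 5.73, and without ApoYap ctrl 1 the induction value of Gtse1 was 4.70.

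Anaphase onset. Cdc20 activates the anaphase-promoting complex, Ube2c is its ubiquitin-conjugating enzyme, and its substrate securin, encoded by Pttg1, restrains separase, encoded by Espl1, the protease that opens cohesin. Cdc20, Ube2c and Espl1 rose in both comparisons and Pttg1 fell in both with TMM scaling. Cdc20 measured 0.706, 0.168, 0.312 and 0.1003 CPM in the ApoYap ctrl libraries and 7.52, 9.27 and 4.01 CPM in the ApoYap Dox libraries. It measured 0, 0.227, 0 and 1.38 CPM in the floxed controls and 26.5, 21.96 and 13.7 CPM in the knockouts. Floxed controls 1 and 3 had 0 counts, so the fold change rests largely on floxed control 4. Cdc20 changed on the log2 scale by 4.30 (SE 0.63; edgeR adjusted p = 2.4e-06) after induction, 5.11 without ApoYap ctrl 1, and 5.55 (SE 0.63; edgeR adjusted p = 5.7e-07) after the knockout, 7.90 without floxed control 4. Ube2c rose by 4.76 and 4.74, and Espl1 by 4.62 and 4.52. Without floxed control 4 the knockout value of Ube2c was 5.68, and without ApoYap ctrl 2 the induction value of Espl1 was 5.34. An exon of Elovl1 lies over the last 500 bases of Cdc20 on the opposite strand, and reads of the 2 genes cannot be told apart unless strand was used in counting, which no source used here states.

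Pttg1 (chr11:43420250-43426251, minus strand) was the most abundant of the 44 in libraries with low YAP activity and the one that fell with TMM scaling. It measured 66.3, 68.5, 88.7 and 75.1 CPM in BL/6 ctrl, 74.9, 104, 86.1 and 80.3 CPM in BL/6 Dox and 68.1, 71.1 and 68.7 CPM in BL/6 AAV-Cre. It measured 78.4, 77.4, 76.7 and 86.7 CPM in the ApoYap ctrl libraries and 47.5, 49 and 62.3 CPM in the ApoYap Dox libraries. It measured 70.4, 68.9, 74.1 and 68.6 CPM in the floxed controls and 48, 54.3 and 55.6 CPM in the knockouts. In both strains all treated libraries lay below all of their controls. The log2 fold change was -0.59 (SE 0.12; edgeR adjusted p = 9.7e-05) after induction and -0.42 (SE 0.12; edgeR adjusted p = 0.0065) after the knockout. The direction depends on scaling: with total counts alone, which puts the median of all genes at 0.99 after induction and 0.44 after the knockout, Pttg1 changed by 0.33 (edgeR adjusted p = 0.020) and 0.05 (edgeR adjusted p = 0.77). Against that shifted median it still lay lower, as did Cks2 after induction.

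Central spindle and cytokinesis. Prc1 crosslinks the central spindle, Kif23 and Racgap1 form the centralspindlin complex, Ect2 is the exchange factor that centralspindlin recruits to switch on RhoA, Anln anchors the contractile ring, and Kif20a carries the passenger complex to the midzone. All 6 rose in both comparisons, with medians of 4.60 and 4.95. Kif23 (chr9:61915905-61946774, minus strand), whose fold change after induction was the largest of the 44, measured 0.777, 0.0838, 0.519 and 0 CPM in the ApoYap ctrl libraries and 40.3, 46.96 and 25.5 CPM in the ApoYap Dox libraries. It measured 0.658, 0.341, 0.238 and 1.68 CPM in the floxed controls and 27.9, 23.6 and 19.4 CPM in the knockouts. Its groups did not overlap in either strain. Kif23 changed by 6.64 (SE 0.61; edgeR adjusted p = 4.2e-09) after induction, 7.54 without ApoYap ctrl 1, and by 4.94 (SE 0.57; edgeR adjusted p = 1.3e-06) after the knockout, 5.78 without floxed control 4. Prc1 measured 3.74, 1.43, 2.39 and 0.401 CPM in the ApoYap ctrl libraries and 40.2, 42.7 and 21.3 CPM in the ApoYap Dox libraries. It measured 0.768, 2.04, 0.834 and 7.1 CPM in the floxed controls and 82.4, 63.8 and 50.01 CPM in the knockouts. Each treated library was above each control. Prc1 changed by 4.07 (SE 0.59; edgeR adjusted p = 5.0e-06) after induction and 4.56 (SE 0.59; edgeR adjusted p = 8.7e-06) after the knockout, 5.74 without floxed control 4. Racgap1, the partner of Kif23, rose by 5.12 and 5.12, Ect2 by 3.50 and 4.61, and Anln by 5.19 and 5.07. The knockout values of Racgap1 and Ect2 were 5.77 and 5.66 without floxed control 4, and without ApoYap ctrl 2 the induction value of Anln was 6.19. Kif20a stayed rare, at 1.66, 1.18 and 0.483 CPM in ApoYap Dox and 6.66, 7.595 and 1.86 CPM in Lats1/2 KO, and changed by 3.25 (SE 0.85; edgeR adjusted p = 0.0017) and 4.95 (SE 0.79; edgeR adjusted p = 2.8e-05), 6.79 in the knockout without floxed control 4. Exons of Rccd1 and Cdc23 lie on the opposite strand over the last 500 bases of Prc1 and Kif20a.

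Mitotic entry and its transcription. Foxm1 is the transcription factor of late cell cycle genes, Cdc25c the phosphatase that activates Cdk1, Cdkn3 a phosphatase that removes the activating phosphate of Cdk2, and Cks2 a small subunit that binds Cdk1. Foxm1, Cdc25c and Cdkn3 rose in both comparisons and Cks2 did not pass the test in either, although with total counts alone it was called higher after the knockout (0.99). Foxm1 rose by 4.67 and 4.68, from 0.389 ± 0.238 to 10.2 ± 3.15 CPM and from 0.452 ± 0.324 to 12.1 ± 1.75 CPM (mean ± SD, n = 4 and 3 in each strain), and the knockout value was 5.27 without floxed control 4. Cdc25c measured 0, 0.168, 0.104 and 0.1003 CPM in the ApoYap ctrl libraries and 1.301, 1.81 and 0.772 CPM in the ApoYap Dox libraries. It measured 0, 0, 0 and 0.0986 CPM in the floxed controls and 3.89, 3.35 and 2.12 CPM in the knockouts. The floxed controls held 1 count in all, in library 4, and the knockouts 134, a ratio of 108.5 after scaling (19.1 to 4317 from counting error at 95%). The fitted fold change of Cdc25c was 3.72 (SE 0.71; edgeR adjusted p = 8.2e-05) after induction. After the knockout it was 6.37, and 8.23 without floxed control 4, where it depends on the prior count.

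Cks2 (chr13:51645232-51650660, plus strand) measured 3.77, 3.82, 4.24 and 2.704 CPM in BL/6 ctrl. It measured 2.47, 5.198, 4.05 and 3.11 CPM in the ApoYap ctrl libraries and 3.505, 3.12 and 2.46 CPM in the ApoYap Dox libraries. It measured 5.82, 5.22, 4.64 and 5.23 CPM in the floxed controls and 10.03, 7.25 and 5.304 CPM in the knockouts. The ApoYap Dox values overlapped those of their controls, and knockout 3 lay inside the range of the floxed controls. The log2 fold change was -0.28 (SE 0.33; edgeR adjusted p = 0.46) after induction and 0.52 (SE 0.32; edgeR adjusted p = 0.22) after the knockout. With total counts alone the values were 0.63 (edgeR adjusted p = 0.092) and 0.99 (edgeR adjusted p = 0.017).

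**Figure D3:**
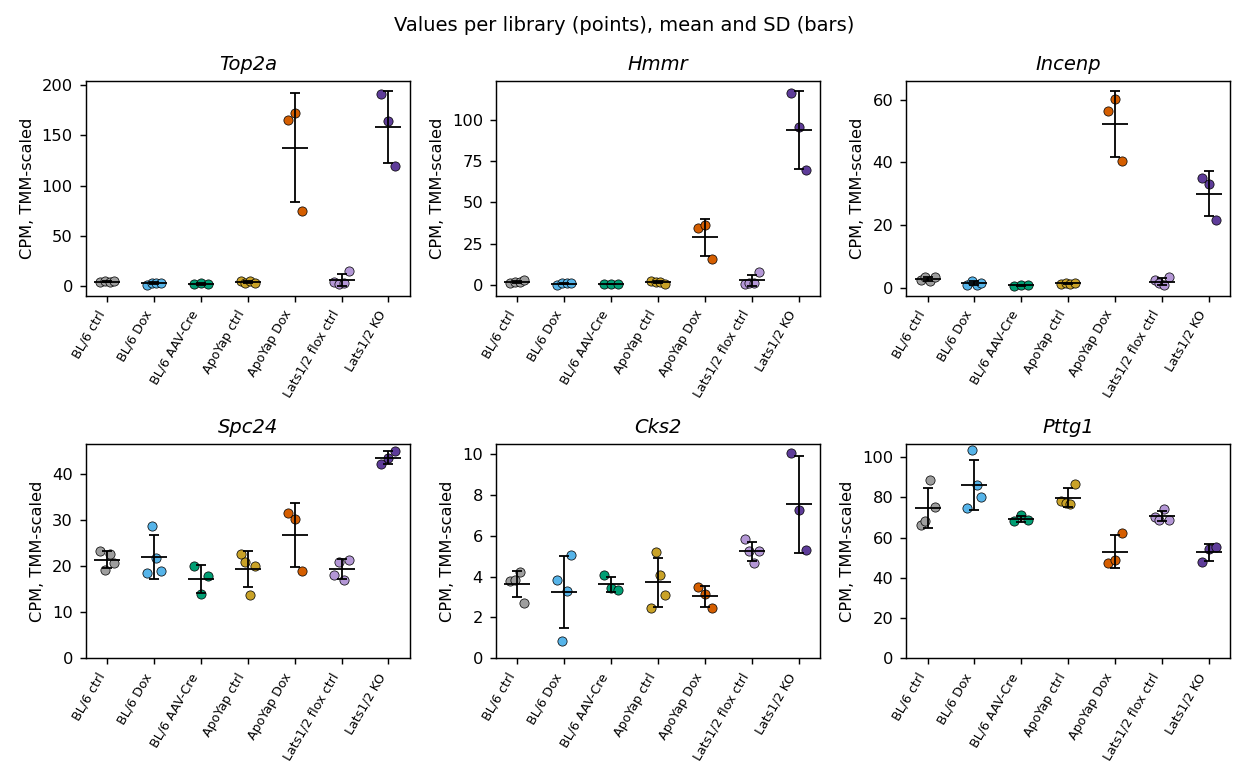
TMM-scaled CPM of 6 genes in each library (points), with the group mean and SD (bars). Top2a, Hmmr and Incenp are low in the 5 groups without raised YAP activity and higher in the ApoYap Dox and Lats1/2 KO libraries. Spc24 stands clear in Lats1/2 KO, Cks2 overlaps between treated and control libraries, and Pttg1 is lower in both raised groups on this scale. With total counts alone Pttg1 was called higher after induction and was not called after the knockout.

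The fold changes after the knockout and after induction were compared within the same fit, as the knockout's change less the induction's. The difference passed for 4 of the 44 genes, where 29.8% of all genes passed. The 3 that changed more after the knockout are of the kinetochore and centromere list. Spc25 differed by 1.20 (SE 0.39; edgeR adjusted p = 0.021), Cenpa by 1.04 (SE 0.39; edgeR adjusted p = 0.045) and Spc24 by 0.70 (SE 0.25; edgeR adjusted p = 0.038). Incenp changed more after induction, with a difference of -1.28 (SE 0.39; edgeR adjusted p = 0.014). For the other 40 the difference was not called, which does not show that the changes were equal: the fitted differences ranged from -1.70 for Kif23 to 2.64 for Cdc25c. The number passing moved from 1 to 9 as single libraries were left out, where 2968 to 4111 of all genes passed. It was 9 without floxed control 4, when Aurka, Cdc20, Cenpa, Cenpf, Ect2, Hmmr, Plk1, Spc24 and Spc25 all changed more after the knockout and Incenp no longer passed (-0.93, edgeR adjusted p = 0.070). It was 1 without ApoYap Dox 3 and without Lats1/2 KO 1, and 2 without ApoYap ctrl 4, floxed control 1 or 3, or Lats1/2 KO 2 or 3. With total counts alone it was 1 (Incenp, -1.71). Over the 14 fits without 1 library, the call was lost in 11 for Cenpa (edgeR adjusted p from 0.012 to 0.13), in 9 for Spc24 (0.010 to 0.14), in 2 for Spc25 (0.0046 to 0.062) and in 1 for Incenp (0.0027 to 0.070).

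In levels rather than changes, every Lats1/2 KO library lay above every ApoYap Dox library for 24 of the 44 genes with TMM scaling, against 30.1% of all genes, and the reverse held for 1 gene, Incenp, against 28.3%. Relative to library totals, without scaling, these counts were 9 (12.1% of all genes) and 5 (54.1% of all genes: Aurkb, Incenp, Ndc80, Pttg1 and Kif23). Ttk, Aurka, Pbk, Nuf2, Spc25, Cenpf, Hmmr, Cdc20 and Ect2 were higher in the knockouts on both scales, and Incenp was higher in ApoYap Dox on both. These strains were not compared by a test of levels.

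**Figure D4:**
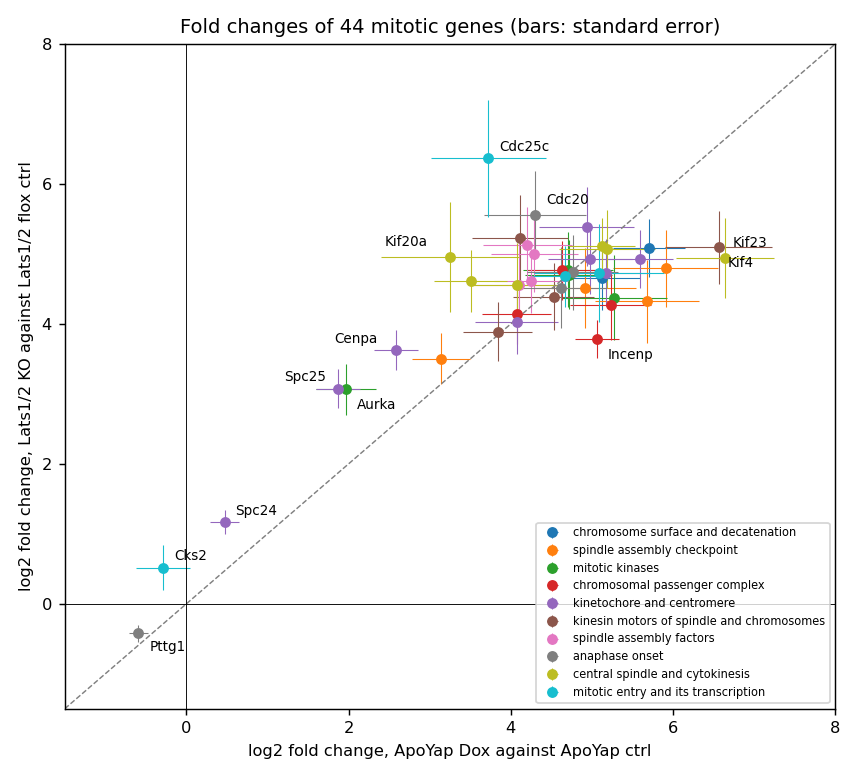
Log2 fold change of each of the 44 genes after the Lats1/2 knockout (vertical) against that after YAP induction (horizontal), coloured by role, with standard errors as bars and equal change as the dashed line. Most genes lie far above 0 on both axes, Spc24, Spc25, Cenpa and Aurka lie above the line, Incenp below it, and Pttg1 is the gene under 0 on both with TMM scaling, though not with total counts alone.

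Libraries of a group differed in the level of the whole set. Their sum, relative to the library total, was 2035, 2038 and 1174 CPM in ApoYap Dox and 2231, 2129 and 1423 CPM in Lats1/2 KO. It was 101.0 to 195.3 CPM in the 19 other libraries, and Pttg1, which did not rise with TMM scaling, made up 54.5% of the ApoYap ctrl sum and 44.8% of the floxed control sum. The ratio of group means was 12.8 for induction (6.83 with TMM scaling) and 14.2 for the knockout (10.21 with TMM scaling). Without Pttg1, a sum added after seeing the data, the ratios were 26.6 (14.2 with TMM scaling) and 24.9 (17.8 with TMM scaling). ApoYap Dox 3 was the lowest of its group for 43 of the 44 genes, where it was lowest for 38.7% of all genes tested, and the exception was Pttg1. Its ratio to the mean of the other ApoYap Dox libraries had a median of 0.52 over the 44 genes and quartiles of 0.49 and 0.59, against a median of 0.98 over all genes with a mean above 1 CPM. Lats1/2 KO 3 was the lowest of its group for 36 genes (35.4% of all genes), with a median ratio of 0.69. Floxed control 4 was the highest of its group for 40 genes (28.3% of all genes), with a median ratio of 4.41 to the mean of the other 3.

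The macrophage marker sum did not follow the same order. ApoYap Dox 3, the library with the lowest mitotic sum of its group, had the highest macrophage sum, 26511 CPM against 16118 and 14925 CPM, and the lowest hepatocyte sum, 53341 CPM. Among the knockouts the macrophage sums were 1063, 2796 and 1230 CPM, with the highest in library 2. Floxed control 4 had a macrophage sum of 140.7 CPM, inside the range of the other floxed controls, 110.5 to 338.2 CPM. The cholangiocyte sum was lowest in replicate 3 of both groups, as the mitotic sum was: 399.5, 320.7 and 275.2 CPM in ApoYap Dox and 330.8, 223.6 and 105.1 CPM in Lats1/2 KO. Of the 21 macrophage markers 21 rose after induction (median 5.61) and 19 after the knockout (median 2.80), and of the 21 endothelial markers 20 and 21 rose (medians 2.81 and 2.40). Of the 15 stellate markers 7 and 14 rose, and of the 4 cholangiocyte markers tested 2 and 2, where 35.0% and 20.6% of all genes were called higher. All these cells can divide, and their part in the rise of the mitotic genes was not tested.

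**Figure D5:**
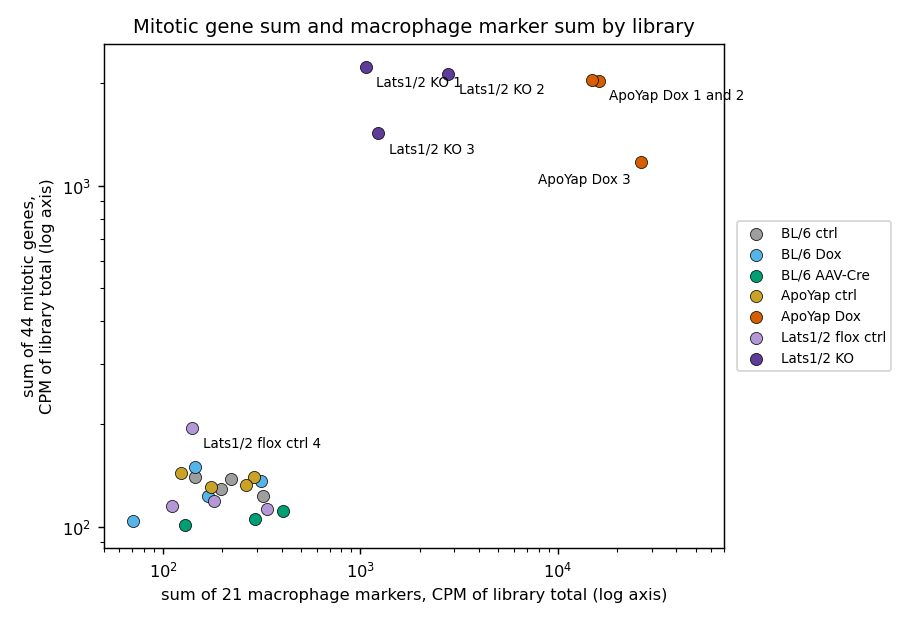
Sum of the 44 mitotic genes (vertical) against the sum of 21 macrophage markers (horizontal) in each library, both in CPM of the library total on log axes, coloured by group. The 19 libraries without raised YAP activity sit at the lower left, the knockouts and ApoYap Dox libraries share a range of mitotic sums of 1174 to 2231 CPM while their macrophage sums differ, and ApoYap Dox 3 has the highest macrophage sum with the lowest mitotic sum of its group.

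The BL/6 groups asked what doxycycline and virus did without a target. With doxycycline alone edgeR called 0 of the 44 genes, where 0.123% of all genes were called (0.0231% higher, 0.100% lower). At an unadjusted p under 0.05 the count was 2 (Incenp and Melk, both lower), and DESeq2 called 0. The share of all genes at that unadjusted threshold was not counted, so nothing is read from those 2 genes. The median log2 fold change was -0.64, with 34 of the 44 fitted below 0, against 50.0% of all genes. Markers of other cells were also mostly fitted below 0: 21 of 21 endothelial (median -0.52), 14 of 15 stellate (median -0.92) and 18 of 21 macrophage markers (median -0.35). Their part in the shift was not tested. With AAV-Cre alone 1 gene was called lower, where 0.301% of all genes were called and 0.0463% were called lower. The median was -0.84 (-0.79 with genes of 0 counts held at their bound), with 42 of the 44 fitted below 0, against 50.3% of all genes. These 2 comparisons share the 4 BL/6 ctrl libraries. Summed over the 44 genes, BL/6 ctrl held 123.1 to 139.8 CPM, BL/6 Dox 103.6 to 149.2 CPM and BL/6 AAV-Cre 101.0 to 111.4 CPM, so the AAV-Cre libraries lay below all 4 controls and the doxycycline libraries did not. Without Pttg1 the ranges were 60.7 to 69.7, 38.1 to 61.4 and 41.3 to 45.97 CPM.

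The gene called with AAV-Cre alone was Incenp. It measured 2.59, 3.58, 2.24 and 3.49 CPM in BL/6 ctrl, 1.13, 2.26, 1.13 and 1.81 CPM in BL/6 Dox and 0.747, 1.06 and 1.02 CPM in BL/6 AAV-Cre. The AAV-Cre libraries lay below every BL/6 ctrl library. Incenp changed on the log2 scale by -1.64 (SE 0.36; edgeR adjusted p = 0.041) with AAV-Cre and -0.91 (SE 0.31; edgeR adjusted p = 0.24) with doxycycline. The first call was lost when any 1 of the 7 libraries was left out, at edgeR adjusted p from 0.073 to 0.20. Foxm1 had 18 counts in BL/6 ctrl and 2 in BL/6 AAV-Cre, a ratio of 0.15 after scaling (0.017 to 0.62 from counting error at 95%). Its fitted change of -2.58 (SE 0.89; edgeR adjusted p = 0.19) did not pass.

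With the matching BL/6 change subtracted, 40 of the 44 genes were called higher and 1 lower after induction, where 54.1% of all genes were called (26.7% higher), and Cdc25c, Cks2 and Spc24 were not called. After the knockout 40 were called higher and 0 lower, where 24.4% of all genes were called (13.0% higher), and Cdc25c, Cdkn3 (edgeR adjusted p = 0.051), Cks2 and Pttg1 were not called. The knockout group had virus for 1 week and the BL/6 group for 24 hours, so time and genotype cannot be told apart in the second subtraction. Several BL/6 groups hold few or 0 counts of these genes, so single subtracted fold changes depend on the prior count and are not given.

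Untreated strains were also compared, to see what the alleles did before treatment. In ApoYap ctrl against BL/6 ctrl edgeR called 0 of the 44 genes, where 0.439% of all genes were called (0.293% lower), with 2 at an unadjusted p under 0.05 (Incenp and Kif4, both lower) and 0 by DESeq2. The median log2 fold change was -0.12. In the floxed controls against BL/6 ctrl edgeR called 0 of the 44, where 4.12% of all genes were called (0.971% lower), with 2 at an unadjusted p under 0.05 (Mki67 and Nuf2, both higher) and 0 by DESeq2. The median was 0.44, and 12 of the 44 were fitted below 0, against 49.2% of all genes. Floxed control 4, which held 195.3 CPM of these genes where the other 3 held 112.6 to 118.97 CPM, is part of that mean. At the unadjusted threshold the share of all genes was not counted in either strain comparison. Nothing is therefore read from the genes named at that threshold.

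Other genes of the same processes, listed by function and with the earlier results known, were tested in the same fit. Of all genes tested, 35.0% were called higher and 32.0% lower after induction, and 20.6% higher and 17.4% lower after the knockout. The low count filter used all libraries, so a gene high only with raised YAP activity could enter the test through those libraries. How many of the further genes did so was not counted. Their counts of genes called higher may therefore follow from the filter in part. Of 33 further kinetochore and centromere genes tested, 28 were called higher after induction (median 2.57) and 27 after the knockout (median 2.80), and none lower. The span after induction ran from Zwint, a partner of Knl1, at -0.14 (not called) to Kntc1 (Rod), of the complex that brings dynein to kinetochores, at 5.86. Of 36 further spindle, centrosome and cytokinesis genes, 34 were called higher and 2 lower after induction (median 3.98), and 30 higher and 0 lower after the knockout (median 3.92). Cit, citron kinase of the midbody, rose by 5.75 and 3.58. Tubg1, the γ-tubulin that nucleates microtubules in resting cells too, fell by 0.87 after induction and measured -0.21 after the knockout (not called). With total counts alone it measured 0.04 and 0.26 (not called).

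Of 13 partners of mitotic entry, such as the cyclins B and Cdk1, 11 were called higher after induction (median 4.10) and 10 after the knockout (median 3.62). Ccnb2 rose by 4.59 and 5.18, while Arpp19, an inhibitor of the phosphatase PP2A, measured -0.09 after induction (not called). Of 17 condensin and cohesin genes, 13 were higher and 1 lower after induction (median 0.83) and 11 and 1 after the knockout (median 0.80): Ncapg, a condensin subunit, rose by 5.53 and 4.33, and Wapl, which unloads cohesin, fell by 0.47 and by 0.37 with TMM scaling but measured 0.45 and 0.10 with total counts alone. Of 16 genes of the anaphase-promoting complex and its regulators, 7 were higher and 2 lower after induction (median 0.40) and 5 and 0 after the knockout (median 0.18), not far from the 35.0% and 20.6% of all genes called higher, so nothing is read from these counts. With total counts alone 14 and 11 were called higher (medians 1.32 and 0.65). That scaling also raises the median of all genes, as given for Pttg1, so nothing is read from these counts either. The inhibitor of the complex, Fbxo5 (Emi1), rose by 4.72 and 3.04. The subunit Anapc13 fell by 0.69 after induction with TMM scaling and measured 0.23 with total counts alone. Of 5 MuvB and B-Myb genes, 2 were called higher in each comparison, and 0 and 1 lower (Rbbp4, at -0.48 after the knockout and -0.01 with total counts alone), and nothing is read from these counts against the background. Mybl2 (B-Myb) rose by 4.73 and 3.87, and Lin52 measured -0.25 and 0.23 (not called).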

How the data were processed

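RNA was read from 25 libraries of sorted mouse hepatocytes by QuantSeq 3′ mRNA sequencing (FWD), which reads 1 fragment near each transcript's 3′ end. The authors deposited raw counts per gene. The submitters' processing notes name FastQC, cutadapt, STAR 2.6.1d and the build mm10 (GRCm38). How reads were counted, on which annotation and whether by strand, is not given in the sources used here. Groups and replicate numbers came from the labels. edgeR 4.0.16 (R 4.3.3) fitted 1 mean per group over all 25 libraries to the counts, with TMM scaling, the default low count filter (minimum count 10, total 15) and robust quasi-likelihood tests, adjusted by Benjamini-Hochberg over 12970 genes. The standard error is the absolute log2 fold change divided by the square root of the F statistic. Levels of single genes are TMM-scaled CPM, and sums over genes are CPM of the library total. Total counts ran from 8107539 to 16515330, so 1 count is worth 0.0361 to 0.141 CPM, and counting intervals are exact at 95% and cover counting error only. TMM factors were 1.68 to 1.84 in ApoYap Dox, 1.14 to 1.29 in Lats1/2 KO and 0.830 to 0.979 elsewhere.

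Alternatives were DESeq2 1.42.0, a replicate block, RLE scaling, scaling by total counts alone, fits of the compared groups only, dropping the low count filter or raising it to 10 CPM in 3 libraries, and leaving out each library. A sum without Pttg1, total counts alone for the markers and further lists, and leaving out each library for members not given in every library were chosen after seeing the data. Over all 300 pairs of libraries the lowest chi-square per degree of freedom was 7.69, so no pair agreed within sampling noise. The fit was tested on simulated counts. Values in every library are given for the most abundant gene of most roles, the genes with the largest and smallest fold changes and those whose call differed between comparisons. The members, the further gene lists and the markers were chosen with earlier results of these data known.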

Additional observations from a re-analysis of the deposited data

Results flagged for a closer look

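Within the groups of 4 libraries, 176 gene-by-group sets were tested for a library far from the others (Dixon's test at 95%), and 26 stood out. The test's nominal rate of 1 in 20 holds for normal values and not for counts near 0. A single count in 1 library, with 0 in the others, is always flagged. Genes also move together within a library, so the 26 are not compared with that rate. Of the 26, 16 were high values in floxed control 4. These were Ttk at 4.73 CPM, Plk1 at 6.41 CPM, Melk at 0.394 CPM and Cdca8 at 4.73 CPM. Among kinetochore genes they were Nuf2 at 1.77 CPM, Knl1 at 1.87 CPM, Cenpe at 5.32 CPM and Cenpf at 7.10 CPM. Among spindle factors they were Hmmr at 7.49 CPM, Tpx2 at 4.83 CPM and Gtse1 at 0.690 CPM. The rest were Cdc20 at 1.38 CPM, Ube2c at 6.02 CPM, Ect2 at 4.24 CPM, Cdkn3 at 2.07 CPM and Cdc25c at 0.0986 CPM, the last a single count. The sum of all 44 genes in that library, 195.3 CPM of the library total, was far from the other floxed controls too.

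The other 10 were spread over 6 libraries, and most rest on few counts. Knl1 was high in BL/6 ctrl 1 at 0.550 CPM. In BL/6 Dox 3, Bub1 at 0.0944 CPM and Bub1b at 0.283 CPM were high. In BL/6 Dox 1, Plk1 at 0 CPM and Birc5 at 0.846 CPM were low, and in BL/6 Dox 4 Cdc25c was high at 0.259 CPM. In ApoYap ctrl 1, Melk at 0.283 CPM and Gtse1 at 0.636 CPM were high, as were Incenp at 1.76 CPM and Anln at 0.755 CPM in ApoYap ctrl 2.

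Changes that differed between groups under a test of the difference were counted in 3 comparisons. The change after induction differed from that with doxycycline in BL/6 for 41 genes, and the change after the knockout from that with AAV-Cre in BL/6 for 40. The changes after the knockout and after induction differed for 4 genes, where 29.8% of all genes differed. These were Incenp by -1.28, Spc24 by 0.70, Spc25 by 1.20 and Cenpa by 1.04 (log2, knockout less induction).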

How the results depend on the processing

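The counts of genes called after induction and after the knockout kept within 1.5 times of 43 under each alternative run. Leaving out single libraries gave 42 to 43 and 43 to 43, where 7954 to 8469 and 3339 to 5111 of all genes were called. The filter of 10 CPM, which tests fewer genes, gave 36 in each. In each comparison it tested 35 of the 42 genes called higher in the main fit, and 35 were higher again. Net of doxycycline the range without single libraries was 40 to 42 (6428 to 7048 of all genes), and net of AAV-Cre 40 to 41 (2147 to 3589 of all genes). With AAV-Cre alone, 2 genes (Incenp and Hmmr) were called when only the compared groups were fitted and 0 without any 1 library. The knockout less induction called 1 gene with total counts alone and 1 to 9 without single libraries, where the latter fits called 2968 to 4111 of all genes. Total counts alone reversed the sign of Pttg1 after induction (0.33) and after the knockout (0.050, not called). That scaling also reversed the sign of Cks2 after induction (0.63, not called). With TMM scaling the summed CPM of the 44 genes was 149.2 in BL/6 ctrl, 118.2 in BL/6 AAV-Cre, 146.5 in ApoYap ctrl and 1001 in ApoYap Dox. Over the single genes and alternatives, 556 values kept direction and call, 38 lost the call, 3 reversed and 1 gained it. Depth limits the controls: with 0 to 3 counts in a group, a fold change depends on the prior count.

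With the replicate number as a block, 43 genes were called after induction, 43 after the knockout, 0 with doxycycline, 1 with AAV-Cre, 41 and 41 net of these, 4 in the knockout less induction and 0 in both strain comparisons. The shares of all genes called in that fit are not given here. These counts are therefore compared only with the same counts in the main fit. The labels do not tie the numbers to shared animals or days. Same-numbered libraries' deviations correlated at 0.10, 0.05 and 0.16 in ApoYap and at -0.13, -0.24 and 0.02 in floxed mice, so the numbers were not treated as pairs.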
